A study of Mus musculus with 18 samples.

Results

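Raly, Npepl1, Tcf3 and Lemd2 are 4 protein-coding genes that were picked from the 23924 genes of the table because their mean levels were low in astrocytes of novice mice and back up in those of expert mice. The group means that chose them are therefore given as a description, with no test, and they support nothing by themselves. The rule named the 4 genes outright and set no numerical limit. The study asked how gene expression in astrocytes of the primary motor cortex (M1) differs with motor learning. Wild-type C57BL/6 mice under water restriction were taught a lever task in which a cued push earned water. There were 18 RNA libraries in 3 groups of 6: naive mice without training (12 to 21 weeks old), novice mice after 3 days of training (11 to 13 weeks) and expert mice after full training (13 to 15 weeks). Each group had 2 libraries labelled female and 4 labelled male. The labels do not say whether the naive mice were also kept on restricted water or how the astrocytes were isolated. Ages and sex labels differ within each group, so several of its libraries came from different animals. Whether every library is a separate animal is not stated, so p-values measure only the spread between these libraries, part of which may be technical. The unit is FPKM, which divides the fragments of a gene by its transcript length in kilobases and by a size factor of the library. It puts genes on a common scale per length. No source used here states how the size factor was set.

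The products of the 4 genes act mainly in the nucleus and in protein turnover, and no common pathway joins them. RALY is an RNA-binding protein of the heterogeneous nuclear ribonucleoprotein (hnRNP) family, a close relative of hnRNP C, and takes part in the processing of transcripts. NPEPL1 is a little studied relative of the leucine aminopeptidases, metal-dependent enzymes that remove residues from the start of peptides. TCF3, also called E2A, is a basic helix-loop-helix (bHLH) transcription factor that pairs with tissue-specific bHLH factors on E-box sequences and is kept off DNA by Id proteins. LEMD2 sits in the inner nuclear membrane, where its LEM domain meets the chromatin protein BANF1, and it recruits CHMP7 to reseal the nuclear envelope after cell division. The name Tcf3 was once also used for Tcf7l1, a factor of Wnt signalling, but Tcf7l1 has an entry of its own in the table.

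Promoter sequences were found for 3 of the 4 genes in the RefSeq table of build GRCm38.p6, and they are shown because genes that were grouped for a shared pattern can be compared at their start sites. Each run covers bases 250 to 21 before the annotated start, 230 bases in all, read 5′ to 3′ on the strand of the gene. Raly lies at chr2:154790860-154791089 (plus strand), Npepl1 at chr2:174110101-174110330 (plus strand) and Tcf3 at chr10:80433656-80433885 (minus strand). Capitals mark the GC box GGGCGG or its reverse complement CCGCCC.
Raly: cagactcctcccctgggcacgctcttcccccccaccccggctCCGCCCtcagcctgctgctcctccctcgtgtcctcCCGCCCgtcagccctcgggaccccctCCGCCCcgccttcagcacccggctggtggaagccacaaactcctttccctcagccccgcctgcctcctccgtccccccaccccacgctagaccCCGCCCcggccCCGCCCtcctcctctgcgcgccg
Npepl1: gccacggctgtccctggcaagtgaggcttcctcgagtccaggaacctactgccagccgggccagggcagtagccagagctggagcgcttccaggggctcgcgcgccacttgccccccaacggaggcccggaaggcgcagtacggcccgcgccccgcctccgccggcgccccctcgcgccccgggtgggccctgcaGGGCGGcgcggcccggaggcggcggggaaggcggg
Tcf3: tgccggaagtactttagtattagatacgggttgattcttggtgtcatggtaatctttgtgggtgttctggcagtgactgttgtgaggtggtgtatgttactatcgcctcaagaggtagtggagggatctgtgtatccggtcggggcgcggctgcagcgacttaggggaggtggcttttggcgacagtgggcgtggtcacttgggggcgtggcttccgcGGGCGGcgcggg
The run of Raly held 5 GC boxes, that of Npepl1 1 and that of Tcf3 1, where 29.8% of the 32851 windows of the same length in the table held at least 1. GC content was 75.2%, 77.8% and 57.4%, against a median of 51.7% over all windows, and the number of CpG dinucleotides was 19, 27 and 16, against a median of 5. The E box CANNTG was found 0, 2 and 1 times, and 63.5% of all windows held it. Its forms CACGTG (5.35% of windows) and CAGCTG (11.8%) had no match, nor had CCAAT (32.2%), TATAAA (11.8%) or GCATGC (5.92%). TGACG (15.9% of windows) had 1 match in Raly. All motifs were searched on both strands, and both named E boxes are also matches of CANNTG. The count of GC boxes depended on the stretch searched. In the whole window, up to 50 bases past the start, Raly held 5, Npepl1 4 and Tcf3 3, and 35.7% of such windows held at least 1. These matches describe the letters only.

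Astrocyte markers were high in all 3 groups. The glutamate transporter Slc1a2 stood at 1397 ± 712, 883 ± 442 and 1565 ± 752 FPKM (SD, n = 6) in naive, novice and expert, and the water channel Aqp4 at 61.0 ± 24.0, 39.8 ± 11.6 and 70.6 ± 36.1 FPKM. Libraries differed in the mean over 1596 olfactory, vomeronasal and taste receptor, keratin-associated and defensin genes, which brain cells mostly leave silent. This silent gene background was 0.303 to 3.34 FPKM in 10 libraries and 4.63 to 6.70 FPKM in 8, and the latter were 2 naive, 4 novice and 2 expert libraries. Expert 3 had the lowest background and the most genes at exactly 0, 5430. In 2 novice libraries, 1 and 3, the sex-chromosome transcripts went against the labelled sex. Depth is not given by the files, but the FPKM of 1 fragment on 1 kb of transcript could be read from steps in the values of 17 libraries. It ran from 0.826 to 1.20 FPKM over naive libraries, from 0.708 to 1.69 over novice ones and from 0.604 to 1.71 over the 5 readable expert ones. A higher step means fewer fragments behind the same FPKM.

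Raly was the most abundant of the 4 genes, and its novice mean was 0.497 times the naive one. In naive libraries it ranged from 12.6 to 23.4 FPKM with a median of 19.98, in novice from 7.28 to 12.4 with a median of 8.46, and in expert from 11.2 to 27.6 with a median of 19.7. Every novice library lay below every naive one. Against the expert libraries 4 of 6 novice libraries lay below the lowest, which was expert 4, and 5 of 6 expert libraries lay above the highest novice. Of all 21745 tested genes, 0.0644% had all novice libraries below all naive ones, and since the means chose Raly nothing is read from this share. The means were 18.8 ± 4.34, 9.36 ± 2.11 and 19.3 ± 6.18 FPKM (SD, n = 6 each). On the scale of log2(FPKM + 1) the difference was -0.93 (SE 0.23) for novice minus naive and 0.93 (SE 0.23) for expert minus novice. Both use the same novice libraries. Expert minus naive was 0.00 (SE 0.23), so expert libraries were centred where naive ones were, with a wider spread.

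Npepl1, the aminopeptidase relative, stood at a lower level with the same order of groups. Its lowest, median and highest values were 5.91, 7.88 and 12.6 FPKM in naive, 1.56, 4.01 and 5.96 in novice, and 5.34, 8.62 and 14.6 in expert. A single novice library, novice 2 at 5.96 FPKM, reached the bottom of the other groups, and the other 5 of 6 lay below all naive and all expert libraries. Means were 8.28 ± 2.53, 3.78 ± 1.49 and 9.05 ± 3.09 FPKM, and the novice mean was 0.456 times the naive one. The log2 difference was -0.98 (SE 0.26) for novice minus naive, 1.08 (SE 0.26) for expert minus novice and 0.10 (SE 0.26) for expert minus naive.

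Tcf3, the E-box factor, had novice values of 3.40 to 6.13 FPKM (median 4.22), naive values of 5.73 to 9.79 (median 7.07) and expert values of 5.16 to 14.1 (median 9.62). Novice 1 at 6.13 FPKM overlapped both other groups, and the other 5 novice libraries lay below them. Group means were 7.30 ± 1.46 in naive, 4.33 ± 1.01 in novice and 9.79 ± 2.91 FPKM in expert. The difference in log2(FPKM + 1) was -0.64 (SE 0.21) for novice minus naive, 0.99 (SE 0.21) for expert minus novice and 0.35 (SE 0.21) for expert minus naive. The expert mean of Tcf3 thus lay above the naive one, while the libraries of both groups overlapped. Nothing is read from this difference, since these means chose the gene. The size for Tcf3 depended on the libraries. Expert minus naive was 0.47 in the 10 libraries of lower background and 0.11 in the 8 of higher background. It was 0.16 without expert 3 and expert 6, a choice made after the data were seen.

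Lemd2, the nuclear membrane gene, was the lowest of the 4. It ranged from 2.52 to 7.14 FPKM in naive with a median of 3.37, from 1.11 to 3.63 in novice with a median of 2.44, and from 4.12 to 8.41 in expert with a median of 6.50. All 6 expert libraries lay above all 6 novice ones, a pattern with novice low that 0.253% of all tested genes shared. Naive libraries were split, with naive 2 and naive 4 above every novice library and the other 4 within the novice range. The means were 4.32 ± 1.95, 2.52 ± 0.945 and 6.41 ± 1.67 FPKM. Differences were -0.57 (SE 0.25) for novice minus naive, 1.09 (SE 0.25) for expert minus novice and 0.52 (SE 0.25) for expert minus naive. How far the naive level lay from the others depended on the measure. As a log2 ratio of group medians, chosen after the data were seen, novice minus naive was -0.47 and expert minus naive 0.95, and with age as a covariate novice minus naive was -0.35.

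**Figure D1:**
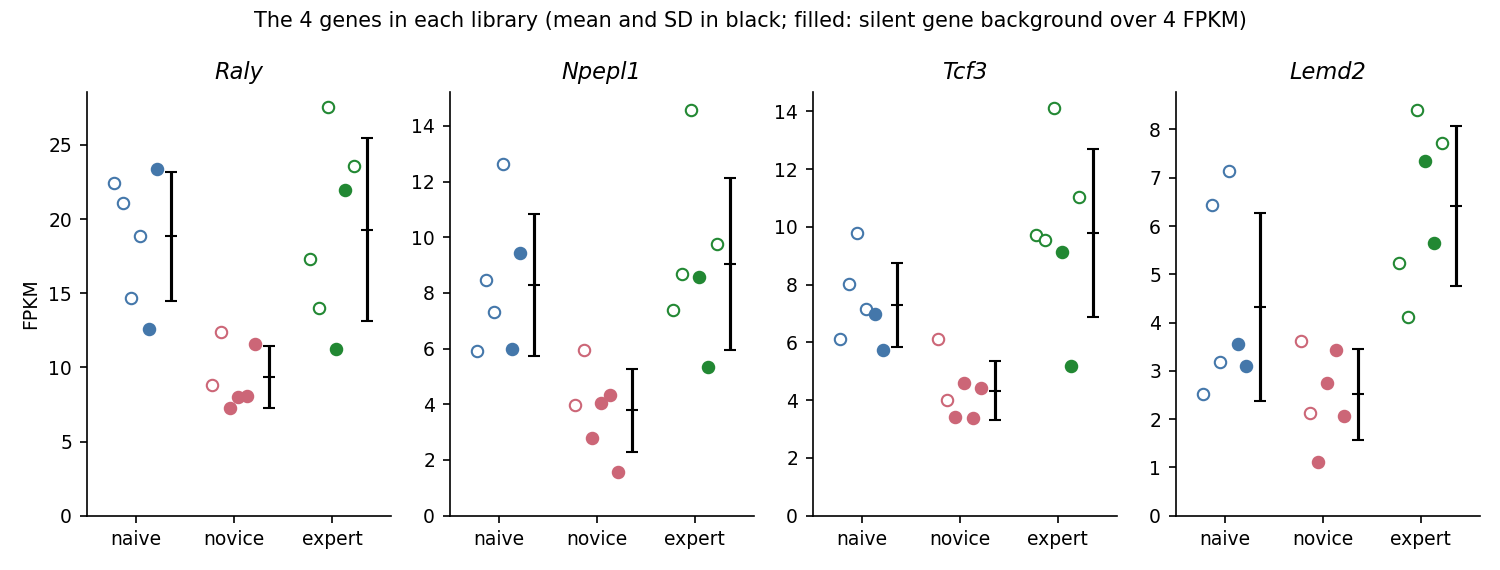
FPKM of each gene in the 18 libraries, by group, with the mean and SD (n = 6) in black; filled points are the 8 libraries with a silent gene background over 4 FPKM. Novice points lie between 7.28 and 12.4 FPKM for Raly and between 1.11 and 3.63 FPKM for Lemd2, and overlap at least 1 other group in all 4 genes.

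Among all tested genes the 4 were far from the middle but not at the end. The median difference over 21745 genes was 0.07 for novice minus naive, -0.14 for expert minus novice and -0.05 for expert minus naive. The value for expert minus novice was -0.02 with trimmed mean of M values factors and 0.04 after quantile normalization. In order from the lowest novice minus naive difference, Npepl1 was number 140, Raly 167, Tcf3 554 and Lemd2 819. None of the 4 had all novice libraries below all libraries of both other groups. This held for 0.0092% of tested genes, the 2 genes Leprel4 and Rbms1, which are named here after their values were seen. The fit across all genes called 0% of genes in any of the 3 comparisons (limma, adjusted p under 0.05), with 4.6% at an unadjusted p under 0.05 for novice against naive, 10.9% for expert against novice and 2.86% for expert against naive.

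**Figure D2:**
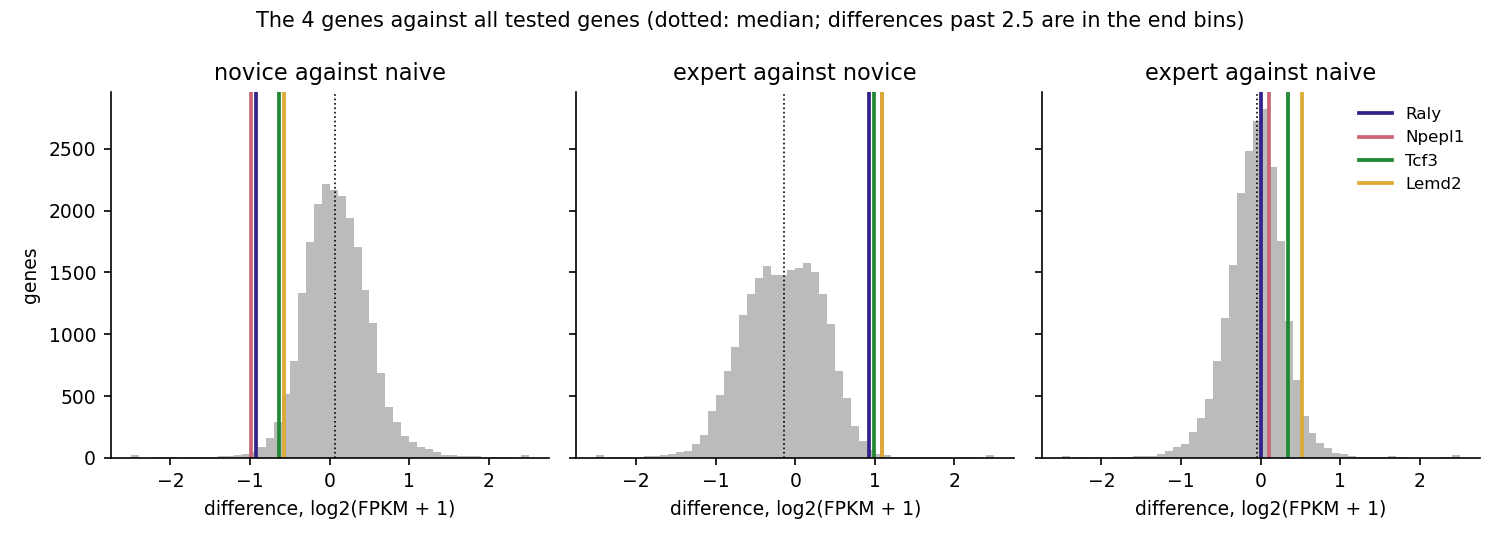
Histograms of the difference in log2(FPKM + 1) over 21745 genes for 3 comparisons, with vertical lines at the 4 genes and a dotted line at the median of all genes. For expert against naive Raly lies at 0.00 and Lemd2 at 0.52.

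Few fragments stood behind these values. With the median length of each gene's coding transcripts in GENCODE, the novice libraries held about 7.37 to 29.96 fragments of Raly (median 12.8), 3.09 to 20.8 of Npepl1 (median 7.12), 5.74 to 23.9 of Tcf3 (median 9.64) and 0.998 to 7.59 of Lemd2 (median 3.23). In naive libraries the medians were 31.9, 22.5, 17.6 and 5.25, and in expert libraries without expert 3 they were 35.0, 19.0, 28.7 and 8.30. Counting such numbers alone would give a coefficient of variation of 28.6%, 40.2%, 32.7% and 62.9% in novice libraries. The observed one was 22.5%, 39.4%, 23.4% and 37.6%. The spread among novice libraries was thus no larger than the estimated counting error for the 4 genes. In the other groups it was larger for Raly in naive (23.0% against 18.3%) and expert (29.6% against 19.6%), Npepl1 in naive (30.6% against 23.1%), Tcf3 in expert (24.9% against 20.9%) and Lemd2 in naive (45.1% against 42.4%). Lemd2 in particular rested on few fragments, down to about 0.998 in novice 3. These figures are estimates, since the authors' transcript models are not known here, and they cover counting error only.

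Markers of several cell types differed in mean between the groups, with 0 called in any list by limma. The 16 astrocyte markers had lower means in novice than in naive libraries (16 of 16, median -0.57) and higher means in expert than in novice ones (16 of 16, median 0.76), and none of them was at 0 throughout a group. Summed, they came to 1889 to 7482 FPKM over naive libraries, 1920 to 4955 over novice and 2539 to 9551 over expert ones. The mean of the markers in log2(FPKM + 1) also went with the silent gene background. It ran from 6.82 (novice 1) to 8.17 (expert 3) in the 10 libraries of lower background. In the 8 of higher background it ran from 5.89 (naive 6) to 6.50 (expert 5), with 5.99 to 6.22 in novice. These 8 held 4 novice libraries, against 2 of each other group, and the part of the background in the marker means was not tested. In bulk RNA, fewer astrocytes and less RNA per astrocyte cannot be told apart. With the mean of these markers as a covariate, chosen after the data were seen, novice minus naive was -0.79 for Raly, -0.78 for Npepl1, -0.48 for Tcf3 and -0.43 for Lemd2. Expert minus novice was then 0.74, 0.81, 0.76 and 0.90.

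Endothelial markers were higher in expert than in novice and than in naive libraries (13 of 13 each, medians 0.54 and 0.58), with sums of 264 to 389 FPKM (naive), 190 to 466 (novice) and 284 to 813 (expert) and none at 0 throughout a group. Expert 3 and expert 6 had the most, 689 and 813 FPKM, and these were also the highest expert libraries for Raly, Npepl1, Tcf3 and Lemd2. Without both, a choice made after the data were seen, expert minus novice was 0.71 for Raly, 0.88 for Npepl1, 0.80 for Tcf3 and 0.93 for Lemd2. Without both libraries, expert minus naive was -0.22, -0.11, 0.16 and 0.36, so the values of Raly and Npepl1 changed sign. Leaving out the highest expert libraries of the 4 genes lowers their expert means by construction. The part of endothelial RNA in these levels was not tested. Mural markers were higher in expert than in naive in 10 of 10 and than in novice in 8 of 10 (medians 0.42 and 0.36). Neuron markers were lower in novice than in naive in 12 of 14 (median -0.20) and lower in expert than in naive in 13 of 14 (median -0.22). Their sums varied widely within each group, from 184 to 1078.5 FPKM (naive), 204 to 1515 (novice) and 233 to 1440 (expert). Microglia markers were higher in novice than in naive in 8 of 12 and lower in expert than in novice in 7 of 12, where 12384 and 12955 of all 21745 genes were. Their sums were 72.3 to 91.1 FPKM (naive), 77.1 to 121 (novice) and 39.8 to 107 (expert), and the part of mural, neuron and microglia markers in the levels of the 4 genes was not tested.

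Within each class of silent gene background the novice mean was the lowest for all 4 genes. The genes were chosen for low novice means in these same libraries, so this order supports nothing further. It is a description, with only 2 libraries of some groups in a class. In the 10 libraries of lower background (4 naive, 2 novice, 4 expert), novice minus naive was -0.80 for Raly, -0.66 for Npepl1, -0.54 for Tcf3 and -0.52 for Lemd2. In the 8 of higher background (2 naive, 4 novice, 2 expert) it was -0.92, -1.085, -0.57 and -0.43. Expert minus novice was 0.87, 0.88, 1.004 and 0.91 in the lower class and 0.80, 0.95, 0.68 and 1.21 in the higher one. Expert minus naive differed in sign between the classes for Raly, at 0.06 and -0.12, and for Npepl1, at 0.22 and -0.13.

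The rule did not use how a gene varies within the groups, and there the background could be tested. In a fit over all genes with the group as a term, the slope on the log2 of the silent gene background was negative for all 4. It was -0.17 (SE 0.08) for Raly, -0.23 (SE 0.09) for Npepl1, -0.19 (SE 0.07) for Tcf3 and -0.14 (SE 0.10) for Lemd2, in log2(FPKM + 1) per doubling of the background. Npepl1 (limma, adjusted p = 0.030) and Tcf3 (adjusted p = 0.020) passed the threshold, while Raly (adjusted p = 0.069) and Lemd2 (adjusted p = 0.21) did not. With trimmed mean of M values factors Raly (adjusted p = 0.0033) and Lemd2 (0.0208) also passed, and Raly did with sex as a covariate (0.0485). Npepl1 missed the threshold after quantile normalization (0.0725) and Tcf3 with array weights (0.0704). Of all genes 55.5% were called for this slope (61.6% at an unadjusted p under 0.05), and 18.8% were called with a negative slope. Slopes were negative in 8120 of all 21745 genes, and calls were 7992 positive and 4087 negative. The 2 of 4 called here, both negative, are near the share of all calls but above that of negative calls. With 4 genes nothing is read from this. The slope of Npepl1 no longer passed without naive 4 (-0.21), naive 5 (-0.22), novice 2 (-0.21), expert 3 (-0.22) or expert 5 (-0.20), nor that of Tcf3 without expert 3 (-0.19) or expert 5 (-0.15), and that of Raly passed without naive 6 (-0.21), expert 2 (-0.19) or expert 5 (-0.21).

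**Figure D3:**
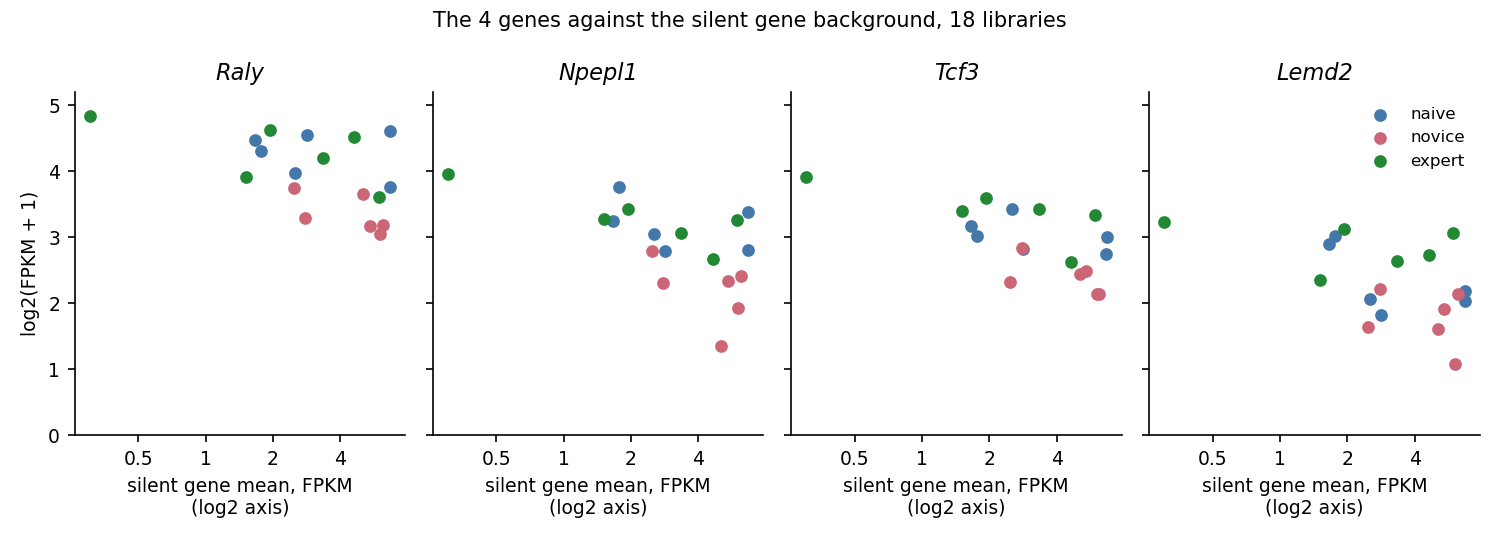
Log2(FPKM + 1) of each gene against the silent gene background (mean FPKM of 1596 genes, log2 axis) in the 18 libraries, coloured by group. Expert 3, at a background of 0.303 FPKM, is the leftmost point, and 4 of 6 novice libraries lie above 4 FPKM.

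Labelled sex was the other measure that the rule did not use. With the group as a term, female minus male was -0.14 (SE 0.20) for Raly, 0.08 (SE 0.23) for Npepl1, 0.28 (SE 0.17) for Tcf3 and 0.14 (SE 0.22) for Lemd2, and none passed (limma, adjusted p = 1.0 for each). Without the 2 libraries at odds with their label the values were -0.18, 0.05, 0.21 and 0.02, and without expert 3 they were -0.29, -0.06, 0.20 and 0.07. The fit called 0% of genes, with 1.33% at an unadjusted p under 0.05, and 5 genes when the 2 libraries at odds with their label were left out.

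Apart from the group means, the 4 genes did not vary closely together. Over the 18 libraries, after the group means were taken out, Pearson's r was 0.54 between Npepl1 and Lemd2, 0.40 between Npepl1 and Tcf3 and 0.38 between Tcf3 and Lemd2. Raly stood apart, with r at 0.22 to Npepl1, 0.17 to Lemd2 and 0.02 to Tcf3. Spearman's rho ranged from 0.08 (Raly and Tcf3) to 0.57 (Npepl1 and Lemd2). Among 9754 genes compared, Npepl1 was number 235 in likeness to Lemd2, and Tcf3 was number 6094 in likeness to Raly. These are descriptions, since all genes of a library share its depth and background and since the estimated fragments are few. With the group means left in, r was 0.59 to 0.76, as the choice of the genes fixes.

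Other genes followed single members more closely, but they were picked as the 3 with the highest r among 9754 genes. A high r is therefore given by the choice. For Raly these were Anapc4, a subunit of the anaphase-promoting complex (Pearson's r 0.85 over 18 libraries, group means removed), Med29, a Mediator subunit (0.83), and Foxo1, a transcription factor of insulin signalling (0.83). Nearest to Npepl1 were Zfp280d (0.85), AI854517 (0.84) and Il33, a cytokine that glial cells make (0.83). For Tcf3 they were Eri3 (0.86), Atp6v0c-ps2 (0.86), a pseudogene that can share reads with its parent gene, and the poly(A) polymerase Papola (0.83). By Spearman's rho Eri3 was number 54 (0.73) and Atp6v0c-ps2 number 139 (0.68). With the group means left in, Pearson's r to Tcf3 was 0.57 for Eri3 and 0.55 for Atp6v0c-ps2. Lemd2 was most like Gdpd1 (0.83), the proteasome assembly factor Psmg1 (0.81) and the small nucleolar RNA Snora5c (0.78, or 0.47 with the group means left in). Of these 12 genes 11 had their lowest mean in novice, by differing amounts, and Snora5c its highest, at 310.2 ± 550.04, 713 ± 612 and 493 ± 312 FPKM in naive, novice and expert. Med29 stood at 6.14 ± 1.99, 3.73 ± 0.731 and 5.17 ± 2.43 FPKM in naive, novice and expert, while Eri3 stood at 13.5 ± 6.03, 12.9 ± 6.43 and 15.6 ± 7.25 FPKM.

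The families of the 4 genes come from lists drawn up by function, with earlier results of these data known. Among 27 hnRNP and related genes, the family of Raly, 24 had lower means in novice than in naive (median -0.30, against 0.07 over all genes) and 26 higher means in expert than in novice (median 0.41, against -0.14). With the silent gene background as a covariate these medians were -0.13 and 0.13. Over all 21745 genes, 9361 had lower means in novice than in naive and 8790 higher means in expert than in novice. Of the 27 hnRNP genes, 0 were called in either comparison, against 0% of all genes. An unadjusted limma p under 0.05 was found for 1 and 7 of them, against 4.6% and 10.9% of all genes. Such a course was common among abundant genes. Over the 2753 genes with at least 20 FPKM in 6 libraries, the median was -0.19 for novice minus naive and 0.22 for expert minus novice. Hnrnpc, the close relative of Raly, stood at 28.4 ± 4.63, 24.4 ± 1.73 and 25.7 ± 4.19 FPKM (n = 6 each), with differences of -0.20 (SE 0.16) and 0.06 (SE 0.16). Ralyl, the RALY-like gene, stood at 4.41 ± 2.10, 5.37 ± 3.46 and 3.26 ± 1.63 FPKM, the reverse order. Hnrnpa2b1, which sorts RNAs for transport, stood at 57.3 ± 15.0, 43.9 ± 8.46 and 72.3 ± 26.4 FPKM, and Hnrnpk, a poly(C)-binding protein, at 62.5 ± 24.5, 52.1 ± 7.47 and 80.3 ± 26.9 FPKM. On the silent gene background, 22 of the 27 were called, all with a negative slope (18.8% of all genes were). The ones not called were Ralyl, Hnrnph2, Hnrnpr, Ptbp1 and Ptbp3.

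Of 18 aminopeptidases, the wider family of Npepl1, 13 had lower means in novice than in naive (median -0.15) and 14 higher means in expert than in novice (median 0.39). The first median lay between -0.07 (age as a covariate) and -0.30 (without naive 6), and the second was 0.09 with the silent gene background as a covariate. Over all 21745 genes, 9361 were lower in novice than in naive and 8790 higher in expert than in novice. None of the aminopeptidases was called (0 of 18 in each comparison). An unadjusted limma p under 0.05 was found for 3 in novice against naive and 3 in expert against novice (4.6% and 10.9% of all genes). Lap3, the leucine aminopeptidase closest in kind, stood at 24.6 ± 3.65, 18.1 ± 4.51 and 24.9 ± 9.32 FPKM, with differences of -0.44 (SE 0.23) and 0.40 (SE 0.23). Rnpepl1, a relative of aminopeptidase B, had the same order at 6.15 ± 1.13, 4.24 ± 1.74 and 7.24 ± 2.19 FPKM (-0.51, SE 0.24, and 0.69, SE 0.24). Npepps, the puromycin-sensitive aminopeptidase, stood at 10.8 ± 3.74, 8.74 ± 4.06 and 13.3 ± 5.42 FPKM, and Lta4h, which also makes leukotriene B, at 9.03 ± 3.18, 7.97 ± 1.996 and 12.1 ± 3.15 FPKM. The slope on the background was called for 9 of 18 (55.5% of all genes), negative for Dnpep, Lap3, Lnpep, Metap2, Npepps and Xpnpep1 and positive for Trhde, Xpnpep2 and Xpnpep3.

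The 20 bHLH and Id genes around Tcf3 were divided. Means were lower in novice than in naive for 9 and higher for 11 (median 0.07), and higher in expert than in novice for 9 and lower for 11 (median -0.04). Both medians changed sign after quantile normalization, to -0.05 and 0.18, and with a filter of 5 FPKM, to -0.18 and 0.44, and the second was 0.07 with trimmed mean of M values factors. Over all 21745 genes, 9361 were lower in novice than in naive and 8790 higher in expert than in novice. Again 0 of the 20 were called, with 2 and 3 at an unadjusted limma p under 0.05 (4.6% and 10.9% of all genes). The other E proteins, Tcf4 and Tcf12, stood at 34.4 ± 9.43, 28.3 ± 8.65 and 41.5 ± 13.7 FPKM and at 11.0 ± 4.25, 9.95 ± 2.14 and 12.1 ± 3.04 FPKM. Tcf3 was thus the least abundant E protein in each group. Of the Id genes, inhibitors of E proteins, Id2 stood at 84.3 ± 40.7, 61.1 ± 26.1 and 88.3 ± 39.6 FPKM and Id4 at 72.3 ± 31.1, 47.9 ± 22.7 and 75.2 ± 30.6 FPKM. Id3 stood at 38.7 ± 14.4, 35.8 ± 12.3 and 47.5 ± 18.6 FPKM. Id1 differed little, at 25.3 ± 9.83, 23.8 ± 9.77 and 24.6 ± 14.2 FPKM. Its means in log2(FPKM + 1) were 4.63, 4.54 and 4.49, lowest in expert. Differences of Id4 were -0.57 (SE 0.35) and 0.66 (SE 0.35). The background slope was called for 11 of 20 (55.5% of all genes), negative for Tcf4, Tcf12, Id2, Id4 and Olig1 and positive for Atoh1, Msc, Neurog1, Neurog2, Tal1 and Tcf21.

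Nuclear envelope genes, 23 with the LEM domain proteins and the lamins, had 15 lower means in novice than in naive (median -0.09) and 18 higher means in expert than in novice (median 0.30). The first median was -0.05 without novice 1 and -0.15 with array weights. The second was 0.185 without expert 3 and 0.47 with trimmed mean of M values factors. Over all 21745 genes, 9361 were lower in novice than in naive and 8790 higher in expert than in novice. None of the envelope genes was called (0 of 23 in each comparison), and 0 and 6 had an unadjusted limma p under 0.05 (4.6% and 10.9% of all genes). The other LEM genes differed among themselves. Lemd3 stood at 5.04 ± 1.10, 4.08 ± 1.75 and 3.96 ± 0.975 FPKM, Tmpo at 10.04 ± 1.79, 9.47 ± 2.96 and 13.3 ± 3.35 FPKM and Ankle2 at 9.34 ± 1.16, 8.87 ± 0.878 and 10.4 ± 1.75 FPKM. Emd, emerin, was at 3.90 ± 2.25 FPKM in novice and 4.06 ± 2.65 in expert, and was listed at 0 in 1 naive library, with up to 5.96 FPKM in the others. Chmp7, the partner of LEMD2 in resealing, stood at 6.52 ± 2.20, 7.05 ± 3.33 and 9.04 ± 3.53 FPKM, and the lamin gene Lmna at 6.62 ± 2.62, 6.67 ± 2.68 and 9.63 ± 2.71 FPKM. Banf1, the chromatin partner of LEM domains, was listed at 0 in the same naive library and stood at 11.2 ± 4.31 FPKM in novice and 11.2 ± 3.30 in expert. The background slope was called for 10 of 23 (55.5% of all genes), with the steepest positive slope in Ankle1 (0.74) and negative ones in Chmp4b, Chmp7, Sun1, Sun2, Syne1, Tor1aip1 and Vps4a. Those of Lmnb2 and Syne3 were positive.

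**Figure D4:**
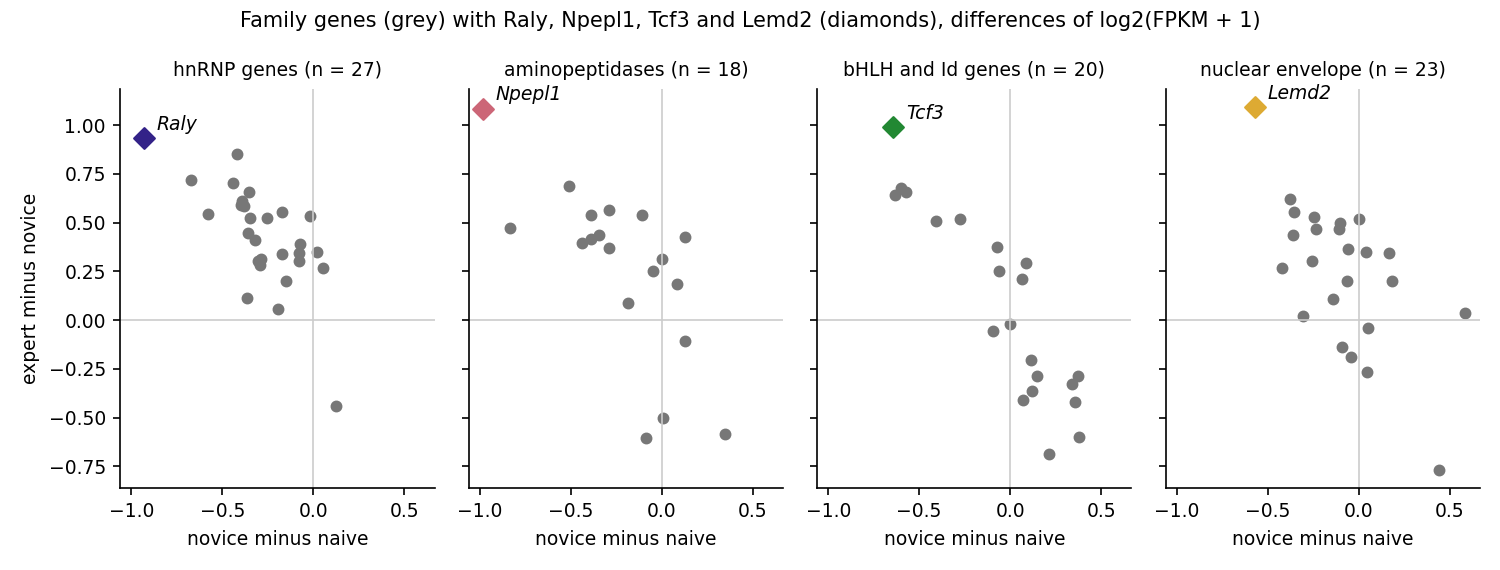
Difference in log2(FPKM + 1) of novice minus naive (x axis) and expert minus novice (y axis) for the genes of 4 families in grey, with Raly, Npepl1, Tcf3 and Lemd2 as diamonds. Both axes use the novice libraries, so points lean to the upper left or lower right by construction; the medians of the hnRNP genes are -0.30 and 0.41, and those of the bHLH and Id genes 0.07 and -0.04, which change sign to -0.05 and 0.18 after quantile normalization.

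The nearest measured genes on either side of the 4 did not all follow them. The table of gene positions used to find these neighbours is of build GRCm38. Next to Raly, Eif2s2, a translation initiation factor, stood at 21.7 ± 6.16, 16.2 ± 4.44 and 21.99 ± 6.57 FPKM (-0.40, SE 0.23, and 0.41, SE 0.23), and Chmp4b, also of the envelope list, at 53.0 ± 29.9, 40.5 ± 19.8 and 50.7 ± 22.8 FPKM. Stx16, a syntaxin of the Golgi beside Npepl1, stood at 8.16 ± 2.42, 8.57 ± 0.988 and 8.56 ± 1.34 FPKM. Gm10714 on the other side was higher in novice, at 7.02 ± 3.35 against 3.27 ± 1.77 and 4.55 ± 3.95 FPKM. Around Tcf3, the respiratory chain gene Uqcr11 stood at 197 ± 117, 153 ± 50.5 and 165 ± 68.7 FPKM and the transcription factor Onecut3 at 7.81 ± 5.83, 8.96 ± 1.52 and 5.61 ± 3.81 FPKM. Beside Lemd2, Ip6k3, an inositol phosphate kinase, stood at 3.38 ± 0.962, 2.45 ± 1.34 and 3.56 ± 1.05 FPKM (-0.43, SE 0.27, and 0.48, SE 0.27), and Mir7214 was listed at 0 in 16 of 18 libraries. None of the 7 tested neighbours was called by limma, with adjusted p of 0.89 or more for novice against naive and 0.45 or more for expert against novice.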

How the data were processed

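RNA of isolated motor cortex astrocytes was measured in 18 libraries, prepared as stranded total RNA and sequenced on an Illumina HiSeq, per the labels' protocols. TopHat and Cufflinks and mouse build mm9 are named, per the submitters' processing notes; no source used here gives versions, options or annotation. The deposited values are called normalized counts by the authors but are in FPKM: low values of 126 olfactory receptor genes fell within 0.1 of whole multiples of a step in 62.7% to 78.1% of cases in 17 libraries, where about 20% would do so for a step not chosen to fit, and expert 3 (47.1%) gave no clear step. Upper quartiles of 8.20 to 8.89 FPKM lie close together, and no source used here states how libraries were scaled. Of 23951 entries, 27 with names turned into dates were left out.

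Genes with at least 1 FPKM in 6 libraries (21745, with the 4 genes among them) were fitted as log2(FPKM + 1) with limma 3.58.1 in R 4.3.3 (trended eBayes, 1 mean per group), adjusted by Benjamini and Hochberg over all tested genes at 0.05. A fold difference on this scale understates the change of low genes. The 4 genes, the gene lists and the tests were chosen with earlier results of these data known. Named were the 4 genes, 20 genes set out by role from the families, family genes past a threshold, the 3 genes of at least 5 FPKM most like each member, and the nearest measured neighbours. Id1 was added beside the other Id genes after the values were seen. Other pseudocounts, filters, scalings, covariates, a replicate block and left-out libraries were tried.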

Additional observations from a re-analysis of the deposited data

Results flagged for a closer look

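In 3 of 72 groups checked, 24 named genes in 3 groups of 6 libraries, a library lay apart from the rest by Dixon's gap ratio on log2(FPKM + 1); chance flags about 1 in 20. None of the 3 concerns Raly, Npepl1, Tcf3 or Lemd2. Lta4h was 11.9 FPKM in novice 5, against 6.41 to 7.76 in the other novice libraries. Emd and Banf1 were both listed at 0 in naive 6, against 3.46 to 5.96 and 6.03 to 13.4 FPKM in the other naive libraries.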

How the results depend on the processing

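For all 4 genes novice stayed below naive and expert above novice in 17 other settings and with each of the 18 libraries left out in turn. Since the genes were chosen on these means in the same libraries, the stable direction gives the pattern no support. Only the sizes of the differences are of use here. With a pseudocount of 5, which shrinks low genes by construction, expert minus novice was 0.67 for Npepl1, 0.65 for Tcf3 and 0.60 for Lemd2, and novice minus naive -0.59, -0.40 and -0.30. Expert minus naive of Lemd2 was 0.95 as a log2 ratio of group medians. The ratio of medians, the fit without expert 3 and expert 6, the astrocyte covariate and the filter of 20 FPKM were chosen after seeing the data. The count of genes called stayed at 0 in the 3 group comparisons under 12 other settings and each library left out. For labelled sex it was 1 with array weights, 5 without the 2 libraries at odds with their label, and 0 to 3 with single libraries left out (3 without novice 1, 1 without expert 3). The slope on the background was called for 6755 genes with a filter of 5 FPKM, which tests 11141 genes, 5833 after quantile normalization, and 10710 to 12150 with single libraries left out. The cause was not tested.

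With the replicate number as a block the slope was called for 7792 genes, among them Raly (limma, adjusted p = 0.0462) and Lemd2 (0.0314) but not Npepl1 (0.0949) or Tcf3 (0.155), and the group comparisons still called 0. Female minus male was then 0.48 for Npepl1, 0.59 for Tcf3 and 0.54 for Lemd2, with an adjusted p of 0.994 each. The labels tie these numbers to nothing shared. Of 18 same-numbered pairs 10 had deviations from the group means correlated over 0.1 (r from -0.361 to 0.456), and 1 library correlated best with its own number.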
